A study of Caenorhabditis elegans with 4 samples.

Results

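The 35 genes described here encode translation factors and splicing factors of the nematode Caenorhabditis elegans, and were examined for occupancy by UNC-39, a SIX-family homeodomain transcription factor. They were a fixed list of names, chosen with earlier results of these data known. All 35 were found in the Ensembl WBcel235 annotation, which holds 19973 nuclear protein-coding genes. The translation group had 16 genes, made up of 5 elongation factor genes, 7 initiation factor genes, 2 eIF5A genes and 2 poly(A)-binding protein genes. The splicing group had 19 genes, made up of 8 SR protein genes, 6 genes of the core spliceosome and its splice-site recognition factors, and 5 genes of other RNA-binding regulators. Translation factors bring the ribosome to an mRNA, deliver aminoacyl-tRNAs to it and move it along the message, and are needed in every growing cell. Splicing factors recognise the ends of introns and remove them, while SR proteins and the tissue regulators choose between alternative sites. In C. elegans many such housekeeping genes lie close to other genes, in operons or behind divergent promoters, so that a stretch of upstream DNA can belong to more than one gene.

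Occupancy was measured by ChIP-seq, in which DNA bound to a protein is recovered with an antibody and sequenced, in 4 biological replicates of one group and no second group. The group was whole worms at the third larval stage (L3 larva), of pooled sex and of unstated age, from strain OP186 with the genotype unc-119(ed3) III; wgIs186. The integrated transgene wgIs186 expresses UNC-39 with a C-terminal GFP-FLAG tag, so all replicates came from 1 transgenic line, carried the unc-119 allele and had the tagged copy in whichever cells the transgene was active. The antibody entry reads unc-39, the chromatin was sheared by microtip sonication, and a control experiment is named but was not analysed here. Whole worms mix all tissues, so a weak peak in many cells and a strong peak in few cannot be told apart.

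The pooled list, made by the authors from all 4 replicates, held 12797 peaks and the replicate lists held 30000, 30000, 13225 and 29529 in replicates 1 to 4. These are relaxed lists, deposited as peaks together with background, so each was read as a ranking of places by the authors' signal value and a listed peak was not read as a bound site. Read as −log10 of q, the deposited q column put 69, 131, 11, 13225 and 7750 peaks at a q-value of 0.05 or less in the pooled list and in replicates 1 to 4, and signal was never compared between lists. Read depth is unknown. A promoter peak of a gene is the strongest peak whose summit lay between 2000 bp upstream and 200 bp downstream of one of its transcript starts. Its percentile is the share of the peaks of the same list with a weaker signal. With 1 group there was no test between groups, and lists of genes are given by counts and medians beside the same values over all protein-coding genes.

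Most of the translation genes with a promoter peak stood high in the pooled list and most of the splicing genes with one did not, while the shares of genes with a promoter peak were alike. Of the 35 genes, 20 (57.1%) had a promoter peak in the pooled list, against 29.2% of all protein-coding genes. By group these were 9 of 16 translation genes (56.2%) and 11 of 19 splicing genes (57.9%). The median percentile of these peaks was 92.7 over the 9 translation genes and 34.6 over the 11 splicing genes, against 57.5 over the 5823 protein-coding genes with a promoter peak. In each replicate list, by contrast, the splicing median was above that of all protein-coding genes (given below). Among the 1000 strongest pooled peaks there were promoter peaks of 5 translation genes (31.2%), iff-2, eef-1A.2, pab-2, eef-1A.1 and eef-1G, and of 1 splicing gene (5.26%), rsp-4, against 3.39% of all protein-coding genes. The thresholded list, 110 peaks that the authors kept by the irreproducible discovery rate from the pooled and replicate lists, held a promoter peak of 1 of the 35 genes, iff-2, against 0.345% of all protein-coding genes. As the genes were chosen with earlier results of these data known, these shares and medians describe the listed genes alone.

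**Figure D1:**
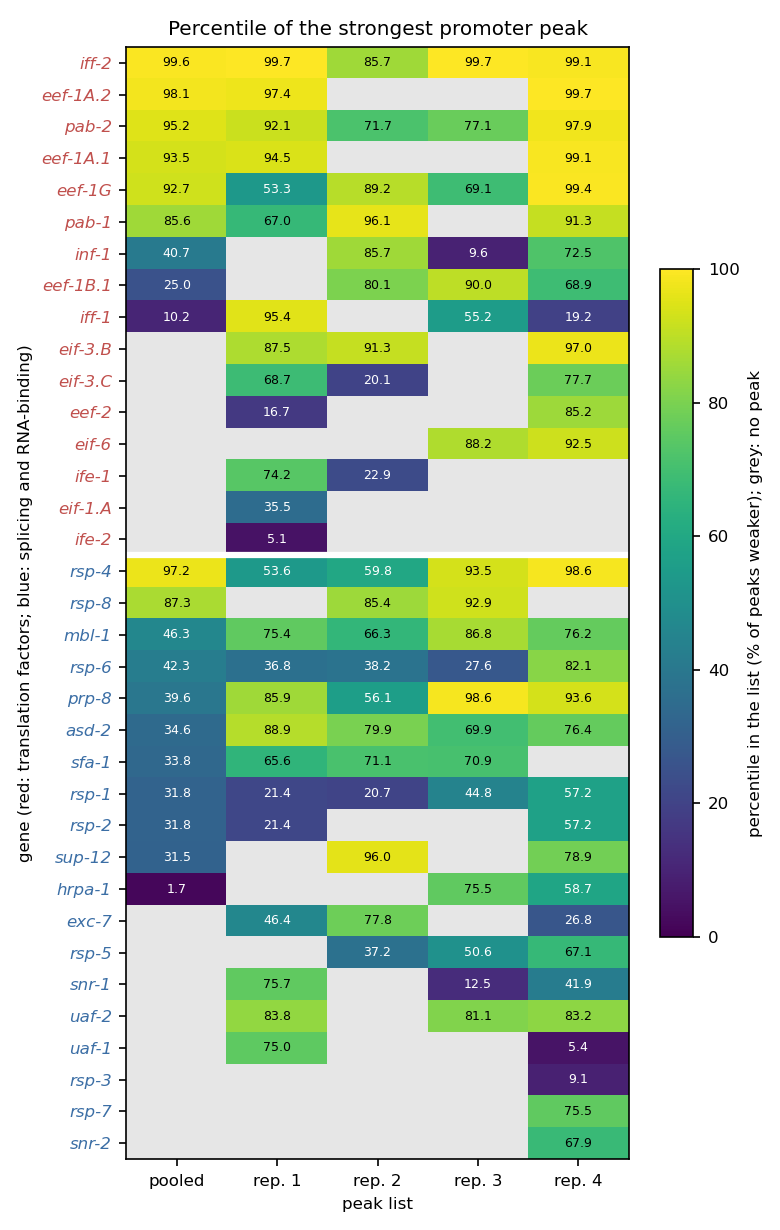
Percentile of the strongest promoter peak of each of the 35 genes (rows, translation genes above splicing genes, each ordered by the pooled list) in the pooled list and in the 4 replicate lists (columns); grey cells have no promoter peak. In the pooled column 5 translation genes stand above 92 and, of the splicing genes, rsp-4 stands at 97.2 and rsp-8 at 87.3 while the other 9 lie at 46.3 or below.

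The gene iff-2 encodes eIF5A, a factor that helps the ribosome through difficult stretches of peptide. It had the highest promoter peak of the 35 genes in the pooled list, with signal 55.0, rank 51 and a q-value of 0.0495 by the deposited column, and no other of the 35 genes had a pooled promoter peak at 0.05 or less. Its peak ranked 84, 4282, 41 and 271 in replicates 1 to 4, which are percentiles of 99.7, 85.7, 99.7 and 99.1, so that 3 replicates placed it near the top and replicate 2 did not. The pooled summit lay 111 bp upstream of the iff-2 start in intergenic DNA that is also in the window of F54C9.14, and all 4 replicate lists had a peak over that summit. The other eIF5A gene, iff-1, had a weak pooled promoter peak of rank 11486 inside its own gene at an internal start, 92 bp downstream of it. Its strongest promoter peak ranked 1392, 5925 and 23860 in replicates 1, 3 and 4, and none was listed in replicate 2. Only the replicate 3 peak covered the pooled summit.

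The paired genes eef-1A.1 and eef-1A.2 encode eEF1A, the GTPase that delivers aminoacyl-tRNA to the ribosome. The eef-1A.2 peak had signal 35.3 and rank 249 in the pooled list, 426 bp upstream of the start in intergenic DNA outside the window of any other protein-coding gene. It ranked 788 in replicate 1 and 92 in replicate 4, while replicates 2 and 3 listed no promoter peak. The eef-1A.1 peak had signal 28.7 and rank 829 in the pooled list, and its strongest promoter peak ranked 1659 in replicate 1 and 259 in replicate 4, again with none in replicates 2 and 3. The replicate 1 peak lay 1060 bp upstream, and the one over the pooled summit ranked 1742. Both genes were therefore high in the same pair of replicates and unlisted in the same other pair. The pooled eef-1A.1 summit was 307 bp upstream of its start, but 234 bp from the start of rfc-4, a clamp-loader subunit gene of DNA replication, and inside the annotated hairpin of cel-mir-5549. Both pooled summits lay outside protein-coding genes. The 2 eEF1A genes are close copies of each other in their coding sequence, and any part this plays in their shared pattern was not tested.

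The gene eef-1G encodes the gamma subunit of the exchange factor that recharges eEF1A with GTP. Its promoter peak had signal 28.1 and rank 931 in the pooled list, 80 bp upstream of a start, and ranked 14015, 3252, 4093 and 170 in replicates 1 to 4. It was listed in all 4 replicates, with percentiles running between 53.3 and 99.4, and the replicate 1 peak did not cover the pooled summit. The eef-1B.1 gene, for another subunit of that exchange factor, had a pooled promoter peak of rank 9600 at 1171 bp upstream, in the 5′ UTR of its neighbour aco-2 (48 bp from the aco-2 start). Its strongest promoter peak ranked 5970, 1322 and 9173 in replicates 2, 3 and 4, and of these only the replicate 4 peak covered the pooled summit. The gene eef-2, for the factor that translocates the ribosome, had no promoter peak in the pooled list and ranked 24989 in replicate 1 and 4378 in replicate 4. A pooled peak of rank 429 (signal 32.1) lay inside the eef-2 gene, its summit 501 bp downstream of the nearest start and so outside the window, and replicate 2 had a peak of rank 341 at the same place.

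The poly(A)-binding proteins coat mRNA tails and contact the initiation complex at the cap. The pab-2 promoter peak had signal 30.1 and rank 619 in the pooled list, 140 bp upstream of a start, and its strongest promoter peak ranked 2383, 8496, 3031 and 612 in replicates 1 to 4. All 4 replicates had a peak over the pooled summit, at ranks 2383, 8496, 4533 and 2980, so the high rank in replicate 4 belongs to another summit, 1297 bp upstream of a start. The gene pab-2 also held a pooled peak of rank 451 further inside the gene. Its relative pab-1 had a pooled promoter peak of signal 25.1 and rank 1846, 494 bp upstream of its own start but 38 bp from the start of the ribosomal protein gene rpl-30. For pab-1 the strongest promoter peak ranked 9906, 1161 and 2568 in replicates 1, 2 and 4, with none in replicate 3. The peaks of replicates 2 and 4 lay elsewhere, 1332 and 1260 bp upstream. Over the pooled summit, replicates 1, 2 and 4 had peaks of rank 9906, 4046 and 13742.

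Of the splicing genes, rsp-4 had the strongest pooled promoter peak. It encodes an SR protein, one of the serine- and arginine-rich factors that bind exons and recruit the splicing machinery. Its peak had signal 33.0 and rank 360 in the pooled list and ranked 13928, 12048, 855 and 399 in replicates 1 to 4, so that replicates 3 and 4 placed it high and replicates 1 and 2 placed it near the middle. The pooled summit lay 1293 bp upstream of the rsp-4 start and 248 bp from the start of ndx-6, a gene of the Nudix hydrolase family, and all 4 replicates had a peak over it. A window of 1000 bp upstream leaves it out, and then 0 splicing genes are among the 1000 strongest. In replicate 2 that peak ranked 23839, and the higher one lay 349 bp upstream of rsp-4. The rsp-8 promoter peak had signal 25.6 and rank 1630 in the pooled list, 570 bp upstream of a start outside the window of any other protein-coding gene, and replicate 3 had a peak of rank 936 over that summit. The replicate 2 promoter peak, of rank 4375, lay at another start of rsp-8 and did not cover the pooled summit, and replicates 1 and 4 listed none.

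The DNA around the 6 strongest pooled promoter summits is shown so that the places behind these ranks can be read; these are the promoter peaks of the 35 genes among the 1000 strongest. Each is 101 bases of the RefSeq reference genome (WBcel235, the same assembly as ce11), centred on the summit and written 5′ to 3′ on the strand of the gene; it is reference sequence and was not read from the worms. Capitals mark CGTCTC on either strand, a motif picked because earlier results of these data found it at the strongest peaks, among them that of iff-2, so that its presence there was part of the choice. TGATAC, a core motif of SIX-family proteins, was searched on both strands as well and has no match in the 6. The windows are chrII:8561428-8561528, minus strand, for iff-2; chrX:7823178-7823278, plus strand, for eef-1A.2; chrII:5390079-5390179, minus strand, for rsp-4; chrX:13527505-13527605, minus strand, for pab-2; chrIII:6971969-6972069, minus strand, for eef-1A.1; and chrV:10965589-10965689, plus strand, for eef-1G.
iff-2: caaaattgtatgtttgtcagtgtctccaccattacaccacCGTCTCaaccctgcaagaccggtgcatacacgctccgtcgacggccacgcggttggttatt
eef-1A.2: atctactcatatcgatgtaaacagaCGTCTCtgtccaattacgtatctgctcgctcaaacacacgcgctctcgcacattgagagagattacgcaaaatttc
rsp-4: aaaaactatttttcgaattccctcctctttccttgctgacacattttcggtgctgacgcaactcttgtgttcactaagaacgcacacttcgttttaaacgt
pab-2: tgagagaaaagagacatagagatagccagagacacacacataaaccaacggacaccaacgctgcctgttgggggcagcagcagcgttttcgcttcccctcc
eef-1A.1: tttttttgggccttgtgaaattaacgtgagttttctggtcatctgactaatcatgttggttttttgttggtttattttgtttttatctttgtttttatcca
eef-1G: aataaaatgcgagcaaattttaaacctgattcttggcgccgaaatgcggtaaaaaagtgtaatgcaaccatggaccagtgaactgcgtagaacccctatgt

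All 6 summits lie outside protein-coding genes by the annotation. Counting 1 window a gene, CGTCTC was present in 2 of the 9 translation windows (22.2%), those of iff-2 and eef-1A.2, and in 0 of the 11 splicing windows. Over all protein-coding genes it was present in 353 of the 5823 windows of the same length at pooled promoter summits (6.06%). As the motif was picked at the strongest peaks, that of iff-2 among them, these shares are not a test of the groups. TGATAC was present in 1 translation window, that of inf-1, and in 0 splicing windows, against 198 of 5823 (3.40%). The GC content of the 6 windows ran between 29.7% at eef-1A.1 and 53.5% at pab-2. The median GC content was 46.5% over the 9 translation windows and 40.6% over the 11 splicing windows, against 40.6% over all protein-coding genes with a promoter peak. A match says only that these letters are in the window.

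Of the 7 initiation factor genes 1 had a pooled promoter peak, and of the 5 elongation factor genes 4 did, against 29.2% of all protein-coding genes; with so few genes a difference of 1 gene changes these shares much. The initiation factor gene was inf-1, which encodes eIF4A, the helicase that unwinds mRNA leaders, and its pooled peak had signal 18.8 and rank 7593, 96 bp downstream of an internal start in its own exon. Its strongest promoter peak ranked 4298, 11953 and 8110 in replicates 2, 3 and 4, and of these only the replicate 2 peak covered the pooled summit. In replicates 1 to 4, promoter peaks were listed for 5, 4, 2 and 4 of the 7 initiation factor genes (71.4%, 57.1%, 28.6% and 57.1%), against 53.1%, 53.8%, 31.4% and 54.5% of all protein-coding genes, so that replicates 2 to 4 were near the share of all genes. Promoter peaks of eif-3.B and eif-3.C, subunits of the eIF3 scaffold, were listed in replicates 1, 2 and 4, and the eif-3.B peak reached rank 880 in replicate 4 at 259 bp upstream. The eif-3.B peaks in replicates 1 and 2 ranked 3742 and 2623 but lay 1634 and 1995 bp upstream, so that the 3 lists did not name the same place, and the replicate 2 summit fell just inside the window. The gene eif-6, for the factor that keeps ribosomal subunits apart, had promoter peaks of rank 1561 in replicate 3 and 2226 in replicate 4, at 576 and 1835 bp upstream. The cap-binding protein gene ife-1 had promoter peaks in replicates 1 and 2, and ife-2 and the eIF1A gene eif-1.A had one in replicate 1 alone, at rank 28481 for ife-2 and 19357 for eif-1.A.

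Among SR protein genes, 5 of 8 had a pooled promoter peak, against 29.2% of all protein-coding genes. The divergent neighbours rsp-1 and rsp-2 shared one, of signal 18.1 and rank 8723, which lay 252 bp upstream of rsp-1 and 155 bp upstream of rsp-2, so they count as 2 genes and 1 peak. At that summit replicate 1 had a peak of rank 23590 and replicate 4 one of rank 12651, and the rsp-1 promoter peaks of replicates 2 and 3 (ranks 23776 and 7297) lay more than 1000 bp upstream. The rsp-6 pooled peak ranked 7390 and sat in an exon of ntp-1, 1697 bp upstream of rsp-6. In replicates 1 to 4 the rsp-6 promoter peak ranked 18953, 18542, 9579 and 5274, at percentiles under 40 in replicates 1 to 3 and at 82.1 in replicate 4. These are not one place: the summits of replicates 1 and 4 lay 677 and 678 bp upstream and those of replicates 2 and 3 lay 1877 and 1867 bp upstream. At the pooled summit replicate 1 had no peak and replicate 4 had one of rank 26371. The genes rsp-3, rsp-5 and rsp-7 had no pooled promoter peak. In the replicate lists, rsp-5 had one in replicates 2, 3 and 4, whereas rsp-3 and rsp-7 had one in replicate 4 alone, at ranks 26841 and 7233. Inside the rsp-7 gene, outside the window, there was a peak of rank 441 in replicate 1 and one of rank 4988 in the pooled list.

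In the core spliceosome group, prp-8 and sfa-1 had a pooled promoter peak and the other 4 genes did not, which makes 33.3%, near the 29.2% of all protein-coding genes. The gene prp-8 encodes the large protein at the centre of the spliceosome. Its pooled promoter peak had signal 18.7 and rank 7735 at 264 bp upstream of the start, and its strongest promoter peak ranked 4217, 13178, 181 and 1900 in replicates 1 to 4. In replicate 3 its percentile was 98.6, as was that of rsp-4 in replicate 4. That prp-8 peak covered the pooled summit, while the strongest promoter peaks of replicates 1 and 4 did not. The gene sfa-1, for the branch point binding protein, had a pooled peak of rank 8469 in an intron of cyn-13, 168 bp from the cyn-13 start, and promoter peaks of rank 10316, 8666 and 3852 in replicates 1, 2 and 3. Only the replicate 1 peak covered the pooled summit of sfa-1. A stronger pooled peak, of rank 2531, lay inside the sfa-1 gene outside the window, and replicate 1 had a peak of rank 601 at that place. The U2AF genes uaf-1 and uaf-2, whose products recognise the 3′ splice site, and the Sm protein genes snr-1 and snr-2 had promoter peaks in replicate lists only. Promoter peaks were listed in replicates 1 and 4 for uaf-1, in replicates 1, 3 and 4 for uaf-2 and snr-1, and in replicate 4 for snr-2. A pooled peak of rank 285 (signal 34.4) lay 2133 bp upstream of snr-2, just outside the window. Another, of rank 2348, lay inside the snr-1 gene, 535 bp downstream of its start and so outside the window.

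Of the RNA-binding regulators, 4 of 5 had a pooled promoter peak, against 29.2% of all protein-coding genes, and 0 of 5 had one among the 1000 strongest, against 3.39% of all. The gene mbl-1 encodes the muscleblind protein, a regulator of alternative exons in muscle and neurons. It had a pooled peak of rank 6867 at an internal start, and promoter peaks of rank 7366, 10102, 1741 and 7037 in replicates 1 to 4. The gene asd-2, for a STAR-family splicing regulator, had a pooled peak of rank 8374, 970 bp upstream, and promoter peaks of rank 3337, 6021, 3983 and 6966. For both genes all 4 percentiles were above 60, but the replicate peaks were not one place. The mbl-1 summits of replicates 1 to 4 lay 1592, 1854, 493 and 758 bp upstream of the nearest start, which was not the same start in all. Their positions were chrX:16977016, 16999874, 17001235 and 16988791. For asd-2 the replicate 4 summit lay 88 bp downstream of a start other than that of the pooled summit. The genes mbl-1 and asd-2 also have the longest windows of the 35, 8905 bp for mbl-1 and 7675 bp for asd-2, because their starts are spread out, against a median of 2201 bp over all protein-coding genes. The part that window length plays in their counts was not tested. The muscle splicing regulator gene sup-12 had a pooled peak of rank 8760 and promoter peaks of rank 1213 in replicate 2 and 6227 in replicate 4. Only the replicate 2 peak covered its pooled summit. The hnRNP gene hrpa-1 had the weakest pooled promoter peak of the 20, at rank 12584, with no replicate peak over its summit. Its promoter peaks in replicates 3 and 4 ranked 3237 and 12182 and lay elsewhere, and replicates 1 and 2 listed none. The ELAV-family gene exc-7 had none in the pooled list, where a peak of rank 1981 lay 2156 bp upstream, and promoter peaks of rank 16067, 6673 and 21601 in replicates 1, 2 and 4.

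**Figure D2:**
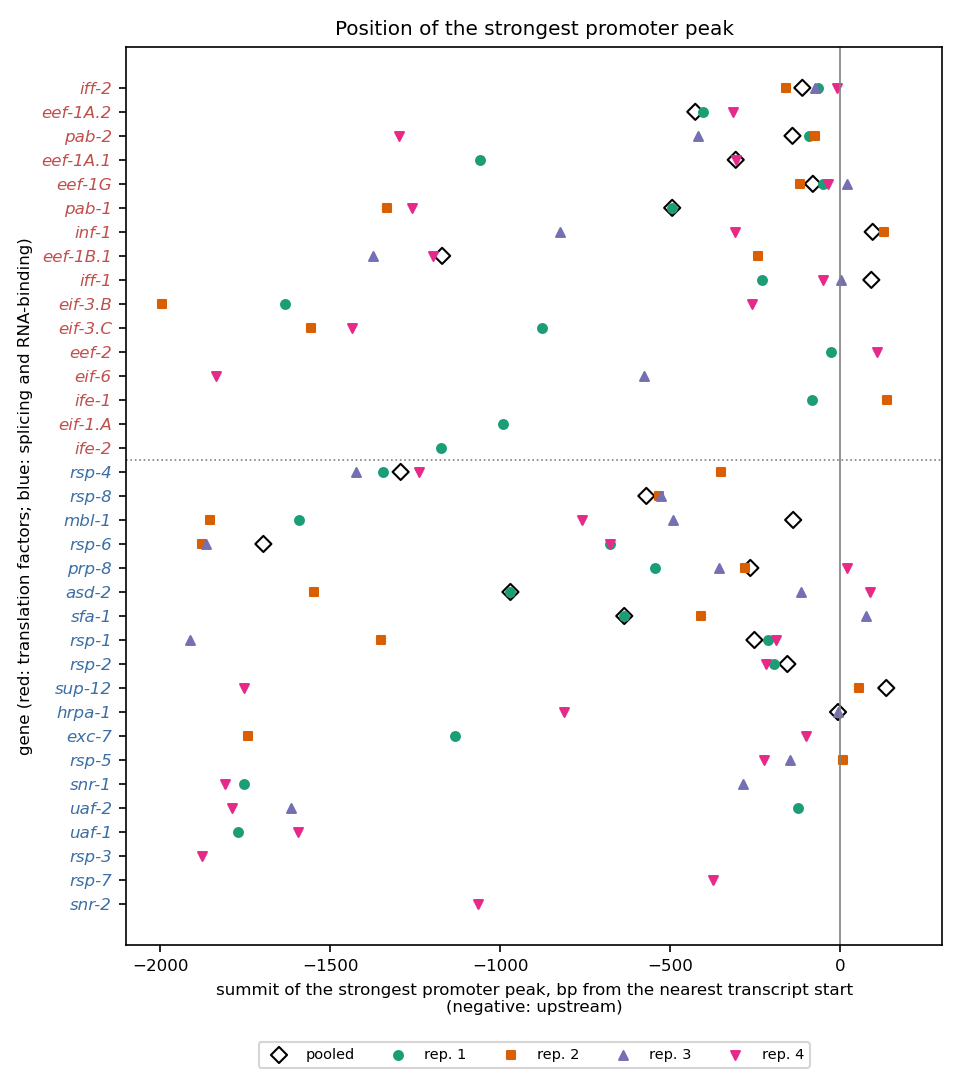
Distance in bp of the summit of the strongest promoter peak from the nearest transcript start of each gene (negative values are upstream), for the pooled list (open diamonds) and replicates 1 to 4 (filled symbols), with translation genes above splicing genes. Symbols of one gene can belong to different starts, as for rsp-8, hrpa-1, mbl-1 and asd-2, so their peaks can lie further apart than the symbols. The symbols of iff-2 and eef-1G sit close together near the start, while those of mbl-1, asd-2 and rsp-1 are spread over more than 1000 bp.

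The pooled summits of the translation genes lay close to starts. Of the 9 translation genes with a pooled promoter peak, 8 (88.9%) had the summit within 500 bp of a start, and of the 11 splicing genes 6 (54.5%) did, against 38.9% of all protein-coding genes with one. The median distance was −140 bp for translation genes and −264 bp for splicing genes, against −759 bp for all. For 8 of the 9 translation genes (88.9%) and 7 of the 11 splicing genes (63.6%) the same peak was also in the window of another protein-coding gene, against 37.1% of all protein-coding genes with a promoter peak. How much of the group's count comes from its neighbours was not tested; when each peak was given to the gene with the nearest start alone, 7 translation genes and 7 splicing genes had a pooled promoter peak (40.0% of the 35), against 19.8% of all protein-coding genes. That count no longer held eef-1A.1 and rsp-4 among the 1000 strongest.

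The share of the 35 genes with a promoter peak was above that of all protein-coding genes in each replicate list, by little in replicate 2. In replicate 1, 13 translation genes and 12 splicing genes had a promoter peak, 71.4% of the 35, against 53.1% of all protein-coding genes. In replicate 2 there were 9 and 11 genes, 57.1% of the 35, which is near the 53.8% of all protein-coding genes. In replicate 3 there were 7 and 12 genes, against 31.4% of all protein-coding genes, and in replicate 4 there were 13 and 17 genes, against 54.5% of all. Over the 4 replicates the mean was 65.6% ± 18.8 of translation genes and 68.4% ± 14.3 of splicing genes, against 48.2% ± 11.2 of all protein-coding genes (SD, n = 4 each). The difference between translation and splicing genes was smaller than the spread between replicates.

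All 35 genes had a promoter peak in at least 1 replicate list, whereas 2604 of the 19973 protein-coding genes had none in any. In every one of the 4 replicates 9 genes had one (25.7%), against 10.7% of all protein-coding genes. These were 3 translation genes (18.8%), eef-1G, iff-2 and pab-2, and 6 splicing genes (31.6%), rsp-1, rsp-4, rsp-6, prp-8, asd-2 and mbl-1. Another 11 genes were listed in 3 replicates, 10 in 2 and 5 in 1 (31.4%, 28.6% and 14.3%). Over all protein-coding genes these shares were 22.1%, 29.5% and 24.6%, so the share at 2 replicates was near that of all. A promoter peak in every list did not mean one place: of the 20 genes with a pooled promoter peak, which hold 19 distinct summits because rsp-1 and rsp-2 share one, iff-2, pab-2 and rsp-4 had a peak over the summit in all 4 replicates, against 4.07% of the 5823 genes with a pooled promoter peak. Replicates 1 to 4 covered the pooled summit of 12, 11, 8 and 13 of the 20 genes, against 64.6%, 67.1%, 23.8% and 39.4% for all protein-coding genes, with the 35 genes' summits below that share in replicates 1 and 2 and above it in replicates 3 and 4. The replicates were themselves part of the pooled data, so this is not an independent check.

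**Figure D3:**
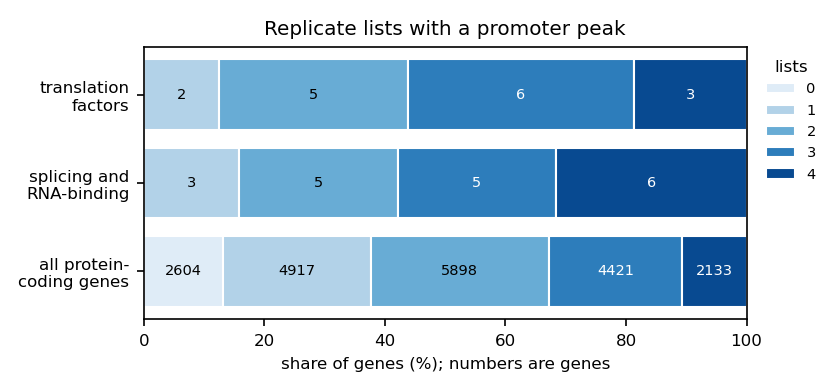
Share of genes (x axis, %) by the number of replicate lists, 0 to 4, that hold a promoter peak, for the 16 translation genes, the 19 splicing genes and all 19973 protein-coding genes; numbers in the bars are genes. None of the 35 genes is at 0 lists, and 3 translation and 6 splicing genes are at 4.

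The high ranks of translation genes did not appear in every replicate. Among the 1000 strongest peaks of replicate 4 there were promoter peaks of 6 translation genes (eef-1A.1, eef-1A.2, eef-1G, eif-3.B, iff-2 and pab-2) and 1 splicing gene (rsp-4), against 3.59% of all protein-coding genes. In replicate 1 there were 2 translation genes, eef-1A.2 and iff-2, and 0 splicing genes, against 2.86% of all. In replicate 3 the order was the other way, with 1 translation gene (iff-2) and 3 splicing genes (rsp-4, rsp-8 and prp-8), against 3.77% of all, and in replicate 2 there were 0 of each, against 2.55% of all. The mean over replicates was 14.1% ± 16.4 of translation genes and 5.26% ± 7.44 of splicing genes, against 3.19% ± 0.581 of all protein-coding genes (SD, n = 4 each), so the difference between the groups was within the spread between replicates. Genes with a promoter peak among the 1000 strongest in 2 or more replicates were iff-2, eef-1A.2 and rsp-4 (8.57% of the 35), against 1.77% of all protein-coding genes. Without replicate 4 that left 1 gene, iff-2.

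**Figure D4:**
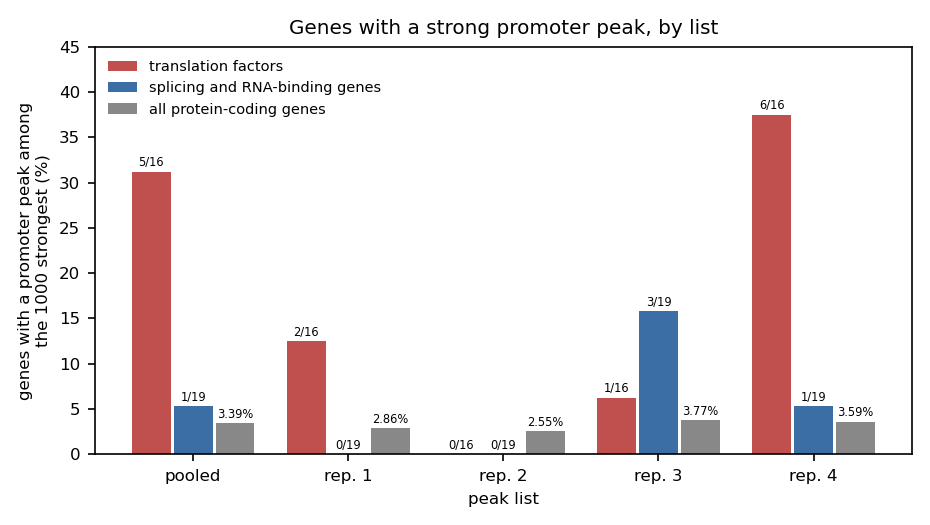
Share of genes (y axis, %) with a promoter peak among the 1000 strongest peaks of the pooled list and of each replicate list, for translation genes, splicing genes and all protein-coding genes; labels give the genes of each group, or the share over all genes. Translation genes stand highest in the pooled list and in replicates 1 and 4, splicing genes in replicate 3, and neither group has any in replicate 2.

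Among genes that had a promoter peak, the translation genes had the higher median percentile in all 4 replicates. The medians were 74.2 for translation genes and 70.3 for splicing genes in replicate 1, against 60.4 for all protein-coding genes. They were 85.7 and 66.3 in replicate 2, against 60.4, and 77.1 and 73.2 in replicate 3, against 58.9. In replicate 4 they were 92.5 for translation genes and 67.9 for splicing genes, against 62.1. Averaged over replicates the median was 82.4 ± 8.33 for translation genes and 69.4 ± 3.01 for splicing genes, against 60.4 ± 1.31 for all (SD, n = 4 each). The splicing median was thus above that of all protein-coding genes in all 4 replicates, whereas in the pooled list it was below (34.6 against 57.5). The gap between the groups ran from a few points in replicates 1 and 3 to much more in replicates 2 and 4. In each list the ranges of the groups overlapped, since both held genes below the median of all protein-coding genes.

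**Figure D5:**
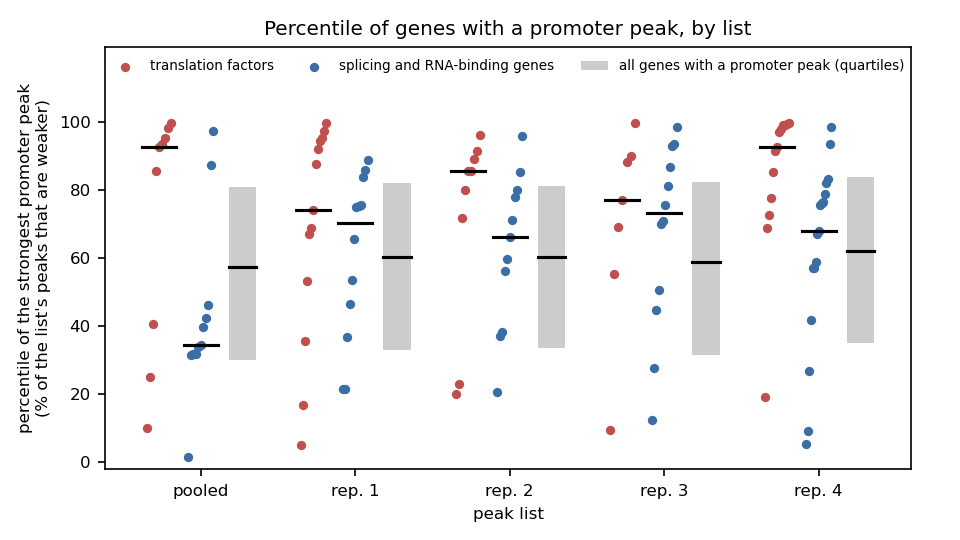
Percentile of the strongest promoter peak (y axis, share of the list's peaks that are weaker) for each translation and splicing gene that has one, by list; points are genes, black lines are medians and grey bars are the quartiles of all protein-coding genes with a promoter peak. The pooled medians are 92.7 for translation genes, 34.6 for splicing genes and 57.5 for all, and in the replicates the points of both groups overlap.

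Other genes of the same pathways were counted from a list of 96 further names, 91 of which had a gene in the annotation. Of these, 15 of 29 translation genes (51.7%) and 29 of 62 splicing genes (46.8%) had a pooled promoter peak, with median percentiles of 69.0 and 61.5, against the 29.2% and 57.5 of all protein-coding genes. The median of 92.7 over the 9 translation genes above was higher than that over the 15 further ones. A promoter peak among the strongest pooled peaks was held by 1 of 29 translation genes (3.45%) and 2 of 62 splicing genes (3.23%). The cut was the one used above, and all protein-coding genes gave 3.39%. In replicates 1 and 2 the median percentile was 72.0 and 79.8 for further translation genes and 70.6 and 52.9 for further splicing genes. In replicates 3 and 4 further splicing genes had the higher median, 66.7 and 79.7 against 55.4 and 77.7. The strongest of the further translation genes was drr-2, which encodes an eIF4H-like initiation factor, with signal 47.8 and rank 73 in the pooled list and ranks 104, 3241, 3867 and 228 in replicates 1 to 4. The next were eif-2Bgamma at rank 1506 and erfa-3, a termination factor gene, at rank 1641. Among further splicing genes, lsm-3 led at rank 208, followed by hrpk-1 at rank 399 and lsm-7 at rank 1094, where the Lsm proteins form rings on small RNAs and hrpk-1 encodes an hnRNP K protein.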

How the data were processed

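Peaks were deposited in narrowPeak format on ce10 and ce11; the ce11 lists were used, and the ce10 lists were not. Per the deposited README files, each replicate has a relaxed list of peaks and background, the pooled list uses the reads of the 4 replicates together, set against a control, and the thresholded list was made from these by the irreproducible discovery rate. No aligner or peak caller is named (not given in the sources used here). Signal, the authors' own deposited value for a peak, served for ranks inside one list and nothing else. The authors' q-value column was taken to be on a −log10 scale, as is usual for this format. Read depth is unknown, so no interval or floor that needs it was given. No column of per-sample values was left unmapped.

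Genes and transcript starts came from Ensembl release 115 (WBcel235), and sequences from the RefSeq genome. Coordinates are 1-based, a summit within 2000 bp upstream to 200 bp downstream of any start was assigned to the gene, and a peak could serve several genes. Assignment was tested on simulated data. All 35 genes could be named; values in every list are given for genes with a promoter peak in the pooled list or in all 4 replicates, other genes by the lists that hold them, sequences for the 6 highest in the pooled list, and further pathway genes only for the 3 highest of each group. The genes and lists were chosen with earlier results of these data known. The alternatives are a shorter window, the most upstream start, any overlap of at least 1 bp, the 10000 strongest peaks, q of 0.05 or less, the nearest start only, leaving out each replicate, and, chosen after seeing the data, the window with the gene body. Counts among the 1000 strongest pooled peaks were also added to the alternatives after seeing the data. Python 3.11.15, numpy 2.4.6, pandas 2.3.3 and matplotlib 3.10.9 were used.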

Additional observations from a re-analysis of the deposited data

Results flagged for a closer look

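In replicate 4, 17 of the 19 splicing genes had a promoter peak, against 12, 11 and 12 in replicates 1 to 3, a sample far from the other 3. Over all protein-coding genes the shares were 53.1%, 53.8%, 31.4% and 54.5% in replicates 1 to 4. The promoter peak of iff-2 stood at percentile 85.7 in replicate 2, against 99.7, 99.7 and 99.1 in replicates 1, 3 and 4. Of 18 sets of 4 replicate values examined, these 2 were marked as holding a sample far from the others, and chance marks about 1 in 20 such sets.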

How the results depend on the processing

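Of 84 values recomputed under an alternative, 62 were counted as the same and 22 as moved. A count was the same if the larger value was at most 1.5 times the smaller. A median percentile or a mean per replicate was the same if it shifted by less than the SD between replicates. This rule is wide: 14 in place of 20 genes with a pooled promoter peak, with the nearest start only, was counted as the same. With a window of 1000 bp upstream, 0 splicing genes were among the 1000 strongest pooled peaks, against 2.15% of all protein-coding genes. With 500 bp, 6 splicing genes (of 19) had a pooled promoter peak, against 12.9% of all, 0 were among the 1000 strongest, against 1.48%, and the mean number of the 35 genes with a promoter peak per replicate was 16.5. With any overlap the splicing median percentile was 42.3 and 2 splicing genes were among the 1000 strongest, against 3.68% of all. With the 10000 strongest peaks of each list the mean per replicate was 16.5, 3 genes were listed in all replicates and the splicing median was 19.5. With peaks at a q-value of 0.05 or less, 1 gene had a pooled promoter peak (iff-2, 1 translation gene and 0 splicing genes), against 0.205% of all protein-coding genes. Only 69 pooled peaks are left at that cut. All of them are among the 1000 strongest, so the 1 translation and 0 splicing genes there repeat the first count. The translation percentile of 29.0 is that of iff-2 alone, against a median of 34.8 over all protein-coding genes, with no splicing median. The mean per replicate was 9.50, and 0 genes were listed in all replicates. The cut leaves 131, 11, 13225 and 7750 peaks in replicates 1 to 4, so the short list of replicate 2 all but fixes the count over all replicates. With the nearest start only, 7 splicing genes had a pooled promoter peak, against 19.8% of all, the mean per replicate was 16.8, 5 genes were listed in all replicates, and 0 splicing genes were among the 1000 strongest, against 2.24% of all. Leaving out 1 replicate at a time, genes among the 1000 strongest of at least 2 replicates numbered 1 to 3, with the lowest without replicate 4. Under the alternatives, values over all protein-coding genes were computed for the pooled list only. Whether the means per replicate and the counts over replicates moved more than those of all genes was therefore not tested. The cause of these shifts was not tested. Adding the gene body, chosen after seeing the data, gave 12 translation and 15 splicing genes with a pooled peak, against 44.8% of all protein-coding genes. No paired analysis was possible because there was 1 group.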
